A study of Mus musculus with 2 samples.

Results

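The 35 genes described here are enzymes, regulators and carriers of cholesterol and fatty acid metabolism, matched by symbol to 35 of the 31053 genes in the deposited tables. The list was chosen with earlier results of these data known. They comprise 18 cholesterol synthesis enzymes, 8 fatty acid synthesis enzymes, 5 regulators, 1 intracellular sterol carrier (Stard4) and 3 efflux genes. Single cells from the dentate gyrus, the part of the hippocampus that keeps making granule neurons after birth, were compared between 2 genotypes at postnatal day 2. The KO library came from mice carrying hGFAP-Cre and floxed Kdm6b alleles (Kdm6bF/F), where the human GFAP promoter switches Cre recombinase on in radial glia, the progenitors of most hippocampal neurons, astrocytes and oligodendrocytes. The control library, given as WT in the labels, came from littermates, and whether these carried Cre or a floxed allele is not given in the sources used here. Each library pooled 2 animals. KO cells below are all cells of the KO library, and whether Cre had acted in a given cell was not measured. With 1 library per genotype the genotypes could not be tested against each other, and every interval in the text covers counting error only.

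The KO library gave 1931 cells with a median of 9176 unique molecular identifiers (UMIs, 1 per captured transcript) and the control library 2943 cells with a median of 7325. Kdm6b, a histone demethylase gene and the target of the deletion, stood at 56.5 CPM in KO cells and 57.9 CPM in control cells, where CPM is the gene's UMIs per 1000000 UMIs of the same cells (ratio interval 0.911 to 1.05). The sources used here do not say which exons were deleted, and 3′ reads from outside the deletion check nothing. Y-linked UMIs without Xist were found in 0 of 1931 KO cells, which allows a share of up to 0.155%, against 986 of 2943 control cells (33.5%). The libraries shared 9 barcode sequences. Cells fell into 30 clusters, of which 27 were named from marker genes as 16 cell types. The cells called radial glia-like below are those that the markers of radial glia and neural stem cells named. The largest type was pyramidal neuron-like (617 KO and 781 control cells), and 32 KO and 55 control cells were granule neuron-like, so the dissection held more than the dentate granule layer.

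Cholesterol is built from acetyl-CoA through the mevalonate pathway, which ends in farnesyl diphosphate, and then through squalene and a chain of sterol intermediates. The sterol-sensing proteins Scap and Insig hold the transcription factors Srebf1 and Srebf2 in the endoplasmic reticulum when sterol is plentiful, and Srebf2 drives the synthesis genes when it is scarce. The blood-brain barrier keeps circulating cholesterol out, so brain cells make their own, and astrocytes are known as a main source, which they export on apolipoprotein E through the transporters Abca1 and Abcg1.

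Promoter sequence was shown for members on either side of the comparisons: a mevalonate gene, a late sterol gene, the fatty acid synthase gene and an efflux gene. RefSeq promoters (GRCm38.p6) were matched for 27 of the 35 members. Fdps, Fdft1, Sqle, Stard4, Fads1, Scd1, Scd2 and Abcg1 are named only. The 250 bases before each start are given 5′ to 3′ on the gene's strand, with matches on either strand in capitals to the letters TCACNCCAC of a sterol regulatory element or CCAAT of an NF-Y box (ATTGG on the other strand). Hmgcs1 lies at chr13:119690101-119690350 (plus strand), Sc5d at chr9:42264301-42264550 (minus strand), Fasn at chr11:120824548-120824797 (minus strand) and Abca1 at chr4:53159896-53160145 (minus strand).
Hmgcs1: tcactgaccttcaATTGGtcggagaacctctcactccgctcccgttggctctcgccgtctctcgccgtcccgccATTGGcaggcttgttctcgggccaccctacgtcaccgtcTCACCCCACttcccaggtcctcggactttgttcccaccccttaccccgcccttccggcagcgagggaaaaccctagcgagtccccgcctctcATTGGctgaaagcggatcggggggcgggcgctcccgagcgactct
Sc5d: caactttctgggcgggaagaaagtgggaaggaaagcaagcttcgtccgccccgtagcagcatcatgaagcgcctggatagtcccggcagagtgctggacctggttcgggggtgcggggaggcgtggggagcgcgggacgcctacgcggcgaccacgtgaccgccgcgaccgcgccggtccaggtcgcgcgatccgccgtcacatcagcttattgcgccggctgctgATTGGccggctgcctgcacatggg
Fasn: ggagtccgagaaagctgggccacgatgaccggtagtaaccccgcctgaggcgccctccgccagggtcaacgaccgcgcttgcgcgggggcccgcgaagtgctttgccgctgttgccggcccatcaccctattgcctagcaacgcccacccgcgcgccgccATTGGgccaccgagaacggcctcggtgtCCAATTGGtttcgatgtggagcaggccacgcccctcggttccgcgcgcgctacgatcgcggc
Abca1: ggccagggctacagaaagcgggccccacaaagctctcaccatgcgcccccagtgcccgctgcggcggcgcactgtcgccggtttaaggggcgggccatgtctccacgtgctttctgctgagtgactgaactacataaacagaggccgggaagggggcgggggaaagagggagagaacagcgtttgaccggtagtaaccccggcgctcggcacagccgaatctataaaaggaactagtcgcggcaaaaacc
In these windows Hmgcs1 held 1 sterol regulatory element, 137 bases before the start, and 3 NF-Y boxes. Sc5d held 1 NF-Y box, Fasn held 3 of which 2 overlap, and Abca1 held neither motif. An NF-Y box was found for 14 of the 15 cholesterol synthesis genes with an entry (93.3%), for 1 of 5 fatty acid synthesis genes and for 0 of 2 efflux genes, against 37.5% of all 27025 genes in the table. The exact 9-letter element was found for 1 of the 15 cholesterol synthesis genes, against 1.22% of all genes. A match is a string of letters and was not tested as a binding site.

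Across all cells every one of the 18 cholesterol synthesis genes had a lower share of UMIs in the KO library. Their summed level was 1472 CPM in KO cells and 1785 CPM in control cells, from 37297 and 55808 UMIs, a log2 ratio of -0.28 with a ratio interval of 0.814 to 0.835. The gap was small for most of them: Tm7sf2 was the only member of the 18 lower by the 1.5-fold used as a threshold for genes with at least 20 UMIs, where 5.34% of 16078 genes were lower by that much and 8.25% higher. The median log2 ratio of the 18 genes was -0.26, against 0.00 over all genes tested. KO and control cells differed about as much in the 7 mevalonate genes (864 and 1063 CPM, log2 ratio -0.30) as in the 11 sterol genes (608 and 722 CPM, log2 ratio -0.25).

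The control library itself was not uniform in these genes. Cells with Xist are here those without a Y-linked UMI, 1817 of 1931 KO cells and 1295 of 2943 control cells. Control cells with Y-linked UMIs are the 986 without Xist. The remaining cells were left out, so the split rests on which transcripts were detected. Control cells with Y-linked UMIs had 1926 CPM of cholesterol synthesis transcripts and control cells with Xist 1658 CPM, a log2 difference of 0.22 (ratio interval 1.14 to 1.18). KO cells with Xist had 1472 CPM, so the log2 ratio to control cells of the same kind was -0.17 (0.873 to 0.903), smaller than the difference inside the control library. Not all 18 genes were lower in KO cells by this comparison. Sqle stood at 165 CPM in KO cells and 161 CPM in control cells (log2 ratio 0.029), and Lss at 15.4 CPM in both. Since 2 animals were pooled, the control cells with Y-linked UMIs and those with Xist come from different animals, and sex and animal cannot be told apart. The difference inside the control library ran the same way in 13 of 14 cell types or unnamed clusters with at least 10 cells of each kind, with an interval above 1 in 7 and below 1 in 0. Among cells with Xist, KO against control, 12 of 16 had a log2 ratio below 0, with intervals below 1 in 6, above 1 in 1 and holding 1 in 9. The part of sex or animal in the all-cell result was not tested beyond these values, and the comparison inside the control library was chosen after the data were seen.

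**Figure D1:**
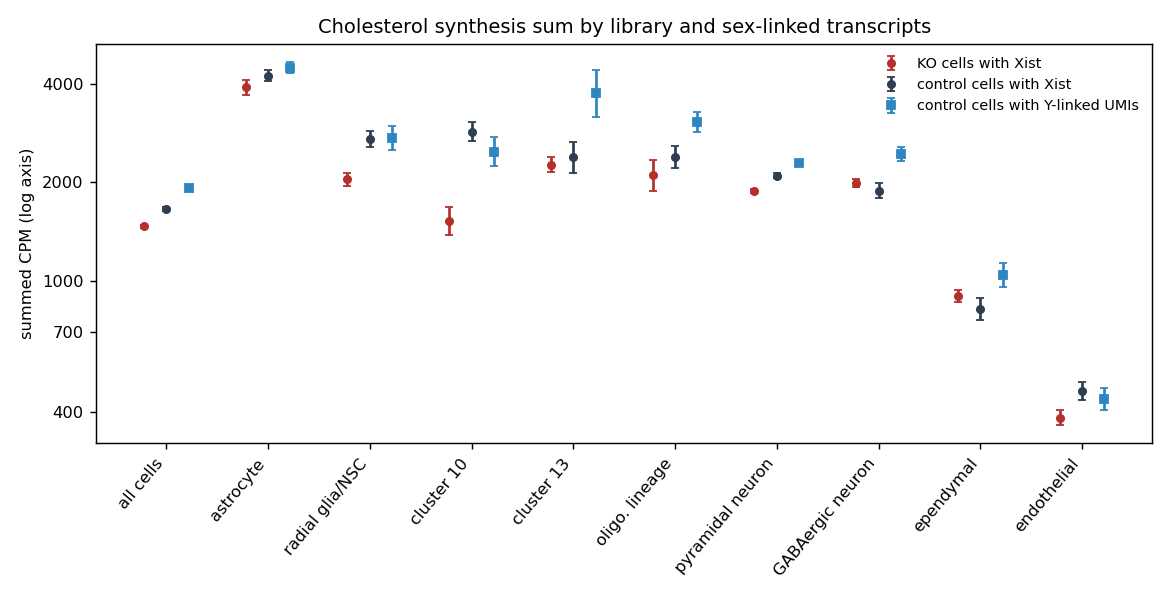
Summed level of the 18 cholesterol synthesis genes (CPM, log axis) in KO cells with Xist, control cells with Xist and control cells with Y-linked UMIs, for all cells and selected types, with bars for 95% Poisson intervals. Radial glia-like KO cells (2044 CPM) sit under both kinds of control cell (2709 and 2742 CPM), while GABAergic neuron-like KO cells (1992 CPM) lie near control cells with Xist (1887 CPM) and under those with Y-linked UMIs (2444 CPM).

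The order of cell types by cholesterol synthesis level was led by glia in both libraries. Astrocyte-like cells stood highest, with 3876 CPM in KO cells and 4293 CPM in control cells, and red blood cell-like cells lowest, with 330 and 379 CPM. Those red blood cell-like cells also carried endothelial markers, at 8916 CPM in KO cells and 8560 CPM in control cells. Endothelial-like cells, which line the vessels, carried 9887 and 9538 CPM of these markers, so the classes may not be separate cell types. The endothelial-like cholesterol sum came just above, with 384 CPM in KO cells and 442 CPM in control cells. Radial glia-like and oligodendrocyte lineage-like cells followed astrocyte-like cells in both libraries, with 2029 and 2129 CPM in KO cells and 2781 and 2681 CPM in control cells. The order of that pair differed between the libraries, and their Poisson intervals overlap in each. In the KO library GABAergic neuron-like cells were close to them, at 1980 CPM, and the Poisson interval of 1922 to 2039 holds the radial glia-like value. In the control library they stood at 2150 CPM. Of the 18 types or unnamed clusters with at least 10 cells in each library, 17 had a lower sum in the KO library, with the interval below 1 in 12 and holding 1 in 6. Neuroblast-like cells were the exception, with 1224 CPM in KO cells and 1148 CPM in control cells (ratio interval 0.921 to 1.23). The largest differences in size were in small classes, such as microglia-like cells (24 KO and 42 control cells), with 388 and 679 CPM. When only cells with Xist were compared, microglia-like cells had 384 CPM in KO cells and 415 CPM in control cells (ratio interval 0.608 to 1.42). Astrocyte markers, summed, stood at 53.5 CPM in KO and 684 CPM in control microglia-like cells, with 8 and 1 of 11 at 0, and their part in the difference was not tested.

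**Figure D2:**
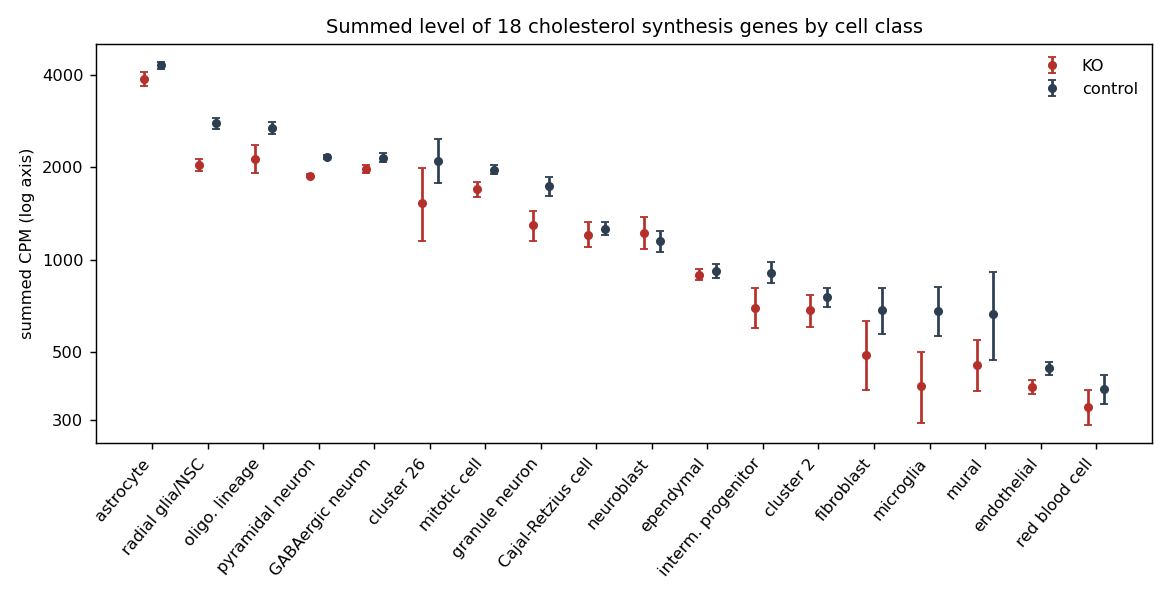
Summed level of the 18 cholesterol synthesis genes (CPM, log axis) by cell type or unnamed cluster, KO left and control right, with bars for 95% Poisson intervals. Astrocyte-like cells stand at 3876 and 4293 CPM, and the KO point lies under the control point in 17 of 18 classes.

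Of the mevalonate genes over all cells, Hmgcs1, which joins acetoacetyl-CoA and acetyl-CoA into HMG-CoA, had 8719 UMIs in KO cells and 13313 in control cells. That is 344 and 426 CPM and a log2 ratio of -0.31 (ratio interval 0.786 to 0.830). Idi1, the isomerase that makes the reactive allylic isoprenoid, stood at 62.3 and 85.4 CPM, and Mvd, the decarboxylase before it, at 45.1 and 61.7 CPM, each with a log2 ratio of -0.45. Fdps, which makes farnesyl diphosphate, was at 175 CPM in KO cells and 207 CPM in control cells. Acat2, the thiolase of the opening step (120 and 141 CPM), Pmvk (79.5 and 98.0 CPM) and Mvk (37.6 and 43.7 CPM), the kinases of mevalonate, differed less, with log2 ratios of -0.22 to -0.30. All 7 intervals lay below a ratio of 1. Acat2, Idi1 and the Scd genes have close relatives in the genome (Acat3, Idi2, Scd3 and Scd4), and how reads shared with those were counted is not given in the sources used here.

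Among the sterol genes Sqle, squalene epoxidase, hardly differed over all cells, with 164 CPM in KO cells and 173 CPM in control cells (log2 ratio -0.07). Msmo1, which removes methyl groups from the sterol ring, stood at 98.4 CPM in KO cells and 134 CPM in control cells, a log2 ratio of -0.45. Dhcr7, the reductase that ends one branch of the pathway, had a log2 ratio of -0.44 and was below 0 in all 15 types or unnamed clusters where it had at least 20 UMIs. Cyp51, the lanosterol demethylase, stood at 72.8 and 90.5 CPM, and Fdft1, squalene synthase, at 89.8 and 106 CPM. Tm7sf2, a sterol reductase, had the lowest ratio, with 207 UMIs in KO cells and 428 in control cells (8.17 and 13.7 CPM, log2 ratio -0.74, ratio interval 0.503 to 0.706). In pyramidal neuron-like cells it stood at 8.91 and 16.4 CPM, whereas in astrocyte-like cells its log2 ratio was 0.15. With clusters weighted by their share of the UMIs of both libraries, a weighting chosen after the data were seen, the log2 ratio of Tm7sf2 was -0.52, within 1.5-fold. Lss, Nsdhl, Hsd17b7, Ebp and Sc5d had log2 ratios of -0.08 to -0.28. Nsdhl and Ebp are X-linked. Among cells with Xist, Nsdhl stood at 31.3 CPM in KO cells and 33.2 CPM in control cells (ratio interval 0.838 to 1.06), and Ebp at 23.3 and 30.6 CPM (0.668 to 0.863).

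**Figure D3:**
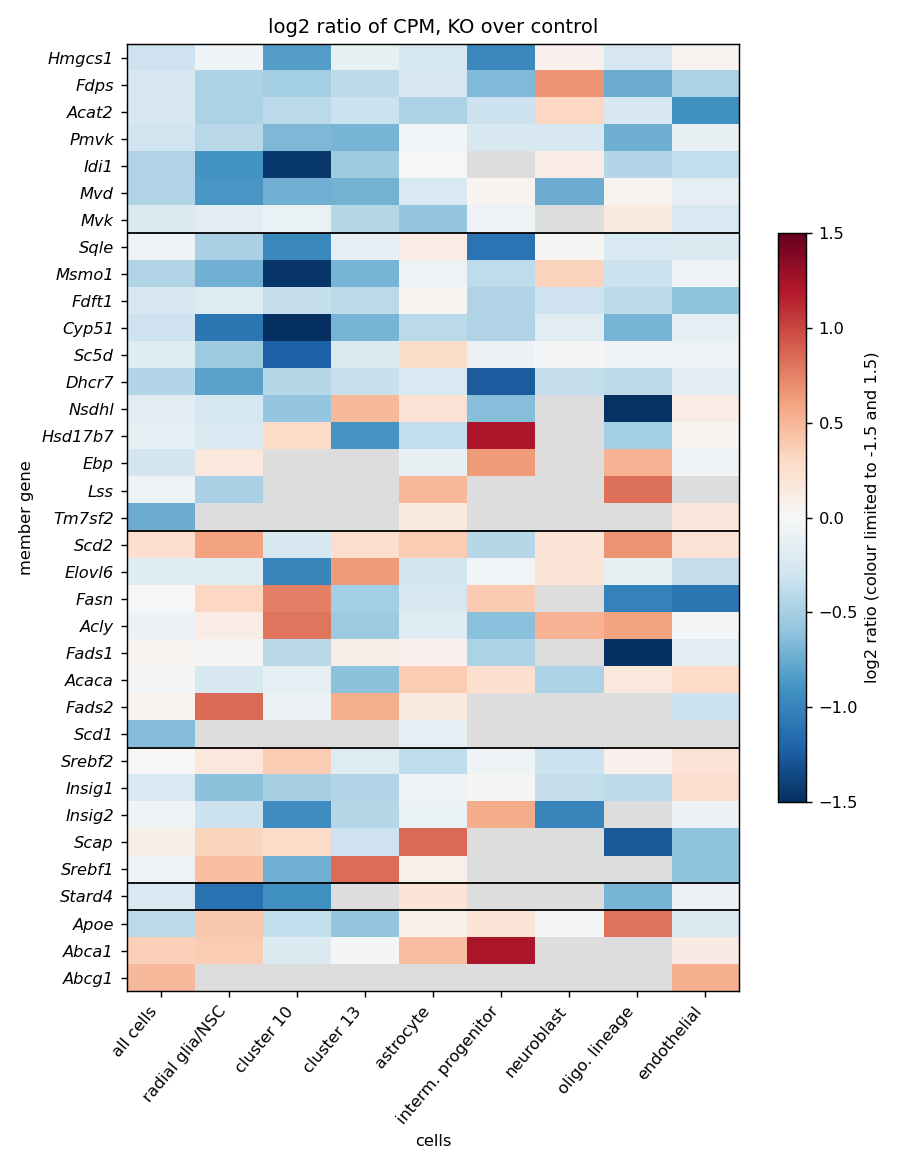
Log2 ratio of CPM, KO over control, for each member (down) in all cells and in the named cells (across). Colour stands for the ratio, limited to -1.5 and 1.5, grey marks fewer than 20 UMIs, and lines part the role groups. Cholesterol synthesis genes are mostly blue (lower in KO) in cluster 10, where Cyp51 reaches -1.70, and Scd2 is red (higher in KO) in most columns.

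In radial glia-like cells cholesterol synthesis transcripts were lower in KO cells than in control cells. Fatty acid synthesis transcripts were higher in sum over the whole type, while within each of its clusters the interval holds 1, as given below. The cholesterol sum was 2029 CPM in 158 KO cells and 2781 CPM in 193 control cells (log2 ratio -0.46, ratio interval 0.686 to 0.776). Idi1, Mvd, Cyp51, Dhcr7 and Msmo1 were lower by at least 1.5-fold, 5 of the 17 measured genes, and none was higher, where 12.7% of 8664 genes were lower by that much and 13.1% higher. The median log2 ratio of the 17 was -0.48, against -0.05 over all genes tested. The sterol genes (877 CPM in KO cells and 1328 CPM in control cells, log2 ratio -0.60) differed more in sum than the mevalonate genes (1152 and 1453 CPM, log2 ratio -0.34). Gene by gene they did not, with median log2 ratios of -0.49 and -0.46, and Hmgcs1, with little difference, holds about as many mevalonate UMIs in KO cells as the other 6 genes together. Restricted to cells with Xist the sum was 2044 CPM in KO cells and 2709 CPM in control cells (ratio interval 0.701 to 0.812), and control cells with Y-linked UMIs had 2742 CPM.

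Cyp51 had 104 UMIs in KO and 195 in control radial glia-like cells, or 113 and 241 CPM, a log2 ratio of -1.09 (ratio interval 0.367 to 0.600). Idi1 had 113 and 186 UMIs, or 123 and 230 CPM (log2 ratio -0.90, 0.420 to 0.680). Msmo1 had 198 and 287 UMIs, or 216 and 355 CPM (log2 ratio -0.72). Each of these intervals lies under a ratio of 1, that of Msmo1 being 0.505 to 0.732. In GENCODE M21 on GRCm38, Cyp51 (ENSMUSG00000001467) lies at chr5:4081145-4104746, Idi1 (ENSMUSG00000058258) at chr13:8885501-8892451 and Msmo1 (ENSMUSG00000031604) at chr8:64718139-64733792. Mvd had 40 UMIs in KO cells and 65 in control cells, and Dhcr7 had 40 and 62, with log2 ratios of -0.88 and -0.81. Hmgcs1, by contrast, stood at 589 CPM in KO cells and 615 CPM in control cells, a ratio interval of 0.846 to 1.08. Sqle (190 and 266 CPM, log2 ratio -0.49), Fdps (-0.46) and Acat2 (-0.48) lay between these. Stard4, which carries sterol between membranes, had 17 UMIs in KO cells and 33 in control cells, a log2 ratio of -1.12 (0.237 to 0.839). Tm7sf2, Scd1 and Abcg1 had fewer than 20 UMIs.

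This cell type is made of 2 clusters that the libraries fill unequally, and the members were read within each. Cluster 10, led by Pdlim3, Adamts19, Rbp4 and Frzb and including Tfap2c, held 49 KO and 138 control cells, and cluster 13, led by Hgf and including Entpd2 and Fbln2, held 109 KO and 55 control cells. Of 14 radial glia and neural stem cell markers, 13 were detected in cluster 10 and 14 in cluster 13, but 1 and 0 were among the 10 leading genes. Within cluster 10 the cholesterol sum was 1494 CPM in KO cells and 2756 CPM in control cells (log2 ratio -0.88, 0.485 to 0.604), and 8 of 15 measured genes were lower by at least 1.5-fold, where 15.5% of 6300 genes were lower and 10.1% higher. Their median log2 ratio was -0.67, against -0.05 over all genes tested. Within cluster 13 the sum was 2258 CPM in KO cells and 2851 CPM in control cells (log2 ratio -0.34, 0.720 to 0.872), with 5 of 15 genes lower, where 13.2% of 6324 genes were lower and 13.1% higher. The median there was -0.41, against -0.03. The interval of the ratio in cluster 10 lies wholly under that in cluster 13.

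In cluster 10 Cyp51 stood at 76.1 CPM in KO cells and 253 CPM in control cells (log2 ratio -1.70), Msmo1 at 120 and 332 CPM (-1.45), and Idi1 at 87.0 and 241 CPM (-1.45). Sc5d, the sterol desaturase, stood at 43.5 and 104 CPM (-1.22). Sqle (141 and 280 CPM) and Hmgcs1 (315 and 561 CPM) were lower by at least 1.5-fold as well, along with Pmvk and Mvd. In cluster 13 the lower genes were Msmo1 (257 and 417 CPM), Cyp51 (129 and 209 CPM), Pmvk, Mvd and Hsd17b7, while Hmgcs1 stood at 707 and 765 CPM. Msmo1, Cyp51, Pmvk and Mvd were thus past the threshold in both clusters. Dhcr7 was within it in each, with log2 ratios of -0.43 and -0.33. Stard4 stood at 25.4 CPM in KO cells and 50.5 CPM in control cells of cluster 10 (-0.92), and in cluster 13, with fewer than 20 UMIs, its log2 ratio was 0.011.

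**Figure D4:**
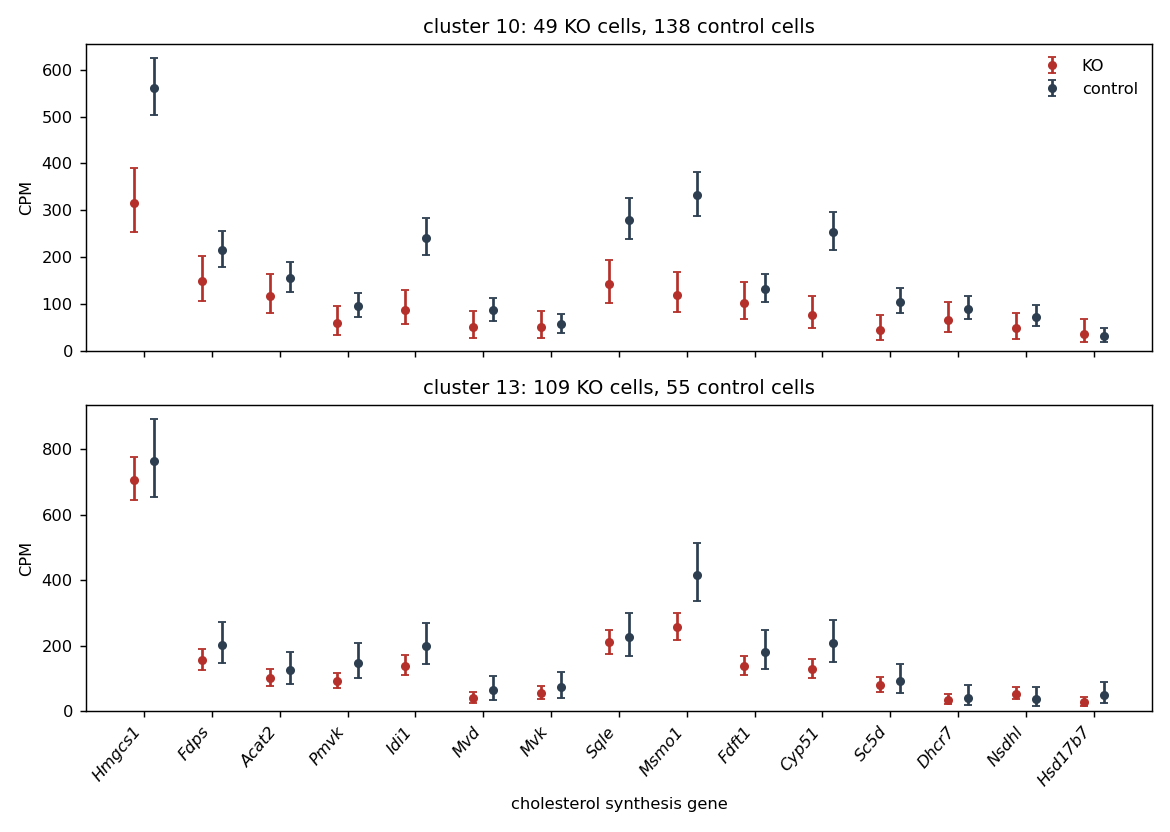
Level (CPM) of the 15 cholesterol synthesis genes with at least 20 UMIs in both radial glia-like clusters, KO left and control right, with bars for 95% Poisson intervals. In cluster 10 the intervals are apart for Hmgcs1, Idi1, Sqle, Msmo1, Cyp51 and Sc5d, and in cluster 13 for Msmo1.

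Among cells with Xist the clusters parted. In cluster 10 the cholesterol sum was 1524 CPM in 47 KO cells and 2857 CPM in 67 control cells (ratio interval 0.473 to 0.600), and control cells with Y-linked UMIs had 2485 CPM. In cluster 13 it was 2268 CPM in 103 KO cells and 2391 CPM in 33 control cells (ratio interval 0.842 to 1.07), and 12 control cells with Y-linked UMIs had 3751 CPM. The lower level in cluster 13 was thus within counting error once cells with Xist alone were compared, and in cluster 10 it was not. Other values moved with genotype in cluster 10. The summed level of 11 astrocyte markers, none at 0, was 1827 CPM in KO cells and 3268 CPM in control cells, that of 14 radial glia markers 6058 and 7204 CPM, and that of neuroblast markers 2472 and 1944 CPM. Mitochondrial UMIs made up 4.06% in KO cells and 3.03% in control cells. In cluster 13 astrocyte markers stood at 5518 and 7139 CPM and radial glia markers at 10871 and 10170 CPM. The part of these differences in the result was not tested.

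Fatty acid synthesis enzymes did not follow the cholesterol genes in radial glia-like cells. Their sum was 933 CPM in KO cells and 702 CPM in control cells, a log2 ratio of 0.41 (1.19 to 1.48). Scd2, the desaturase that makes monounsaturated fatty acids, made up most of the difference, with 548 UMIs in KO cells and 319 in control cells (597 and 394 CPM, log2 ratio 0.60). Fads2, which begins the making of polyunsaturated fatty acids, stood at 71.9 and 39.5 CPM (0.85), and these were the 2 of 7 measured genes higher by at least 1.5-fold. In radial glia-like cells with Xist Fads2 was again higher and Scd2 was within 1.5-fold (log2 ratio 0.55). The clusters, filled unequally by the libraries, did not both show it. The sum was 533 and 605 CPM within cluster 10 (0.722 to 1.07) and 1104 and 969 CPM within cluster 13 (0.976 to 1.34), and both intervals hold 1. With each cluster weighted alike in both libraries, the sum was 817 CPM in KO cells and 786 CPM in control cells. Within cluster 10, Elovl6, an elongase, was lower (32.6 and 67.4 CPM), and Acly, which supplies cytosolic acetyl-CoA, was higher (76.1 and 43.8 CPM), as was Fasn (50.8 and 30.3 CPM), and the intervals of Acly and Fasn hold 1.

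Apoe, the main lipid-carrying apolipoprotein of the brain, showed the same dependence more sharply. It stood at 6125 CPM in KO and 4628 CPM in control radial glia-like cells, a log2 ratio of 0.40. Yet it was lower in KO cells within both clusters, at 1436 and 1853 CPM in cluster 10 (log2 ratio -0.37) and at 8140 and 12261 CPM in cluster 13 (-0.59), where Apoe is high. Abca1, the transporter that loads cholesterol onto apolipoproteins, stood at 68.9 and 80.9 CPM in cluster 10 and at 162 CPM in both libraries in cluster 13. Insig1, the sterol-induced brake on the Srebf proteins and itself one of their targets, stood at 113 and 174 CPM in the whole type (log2 ratio -0.62), with log2 ratios of -0.49 and -0.45 within the clusters and -0.58 among cells with Xist, each within 1.5-fold. Srebf2, the main activator of cholesterol synthesis genes, stood at 92.6 and 82.8 CPM, a ratio interval of 0.803 to 1.56.

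Astrocyte-like cells had the highest level of most synthesis genes and a small difference between genotypes. Their cholesterol sum gave a log2 ratio of -0.15 (0.854 to 0.954), and 1 of 18 genes, Mvk, was lower by at least 1.5-fold, where 11.1% of 8326 genes were. Mvk, mevalonate kinase, had 36 UMIs in KO cells and 200 in control cells, or 86.9 and 132 CPM (log2 ratio -0.59, 0.447 to 0.940). The mevalonate sum was 2080 CPM in KO cells and 2472 CPM in control cells (0.781 to 0.907), and the sterol sum 1796 and 1822 CPM (0.908 to 1.07), with median log2 ratios of -0.24 and 0.04 over the genes. The difference between the early and late steps was not tested. Hmgcs1 stood at 965 and 1164 CPM and Msmo1 at 507 and 533 CPM. Scap, the escort of the Srebf proteins, was the 1 of 5 regulators past the threshold, at 50.7 and 28.4 CPM from 21 and 43 UMIs, where 10.7% of genes were higher. It was within 1.5-fold when only cells with Xist were read, at 49.2 CPM in KO cells and 46.3 CPM in control cells. Scd2 stood at 915 and 702 CPM (log2 ratio 0.38). Apoe, at 16159 CPM in KO cells and 15331 CPM in control cells, had a log2 ratio of 0.08, and Abca1, at 145 and 106 CPM, one of 0.46. Both turned among cells with Xist, where Apoe stood at 15637 CPM in KO cells and 18382 CPM in control cells (log2 ratio -0.23, 0.824 to 0.878) and Abca1 at 156 and 161 CPM (-0.04).

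Intermediate progenitor-like cells, named from markers of the daughters of radial glia and low in mitotic markers (38.3 CPM in KO cells and 62.2 CPM in control cells), had 697 CPM of cholesterol synthesis transcripts in KO cells and 907 CPM in control cells (log2 ratio -0.38, 0.648 to 0.907). Hmgcs1, Sqle, Fdps, Nsdhl and Dhcr7 were lower by at least 1.5-fold, 5 of 15 measured genes, where 16.3% of 6449 genes were, and Hsd17b7 and Ebp were higher, where 9.99% were. Counts were low: Hmgcs1 had 12 UMIs in KO cells and 66 in control cells (log2 ratio -0.97, 0.242 to 0.920), and Sqle had 9 and 55 (log2 ratio -1.11, 0.193 to 0.905). Hmgcs1 was again lower among cells with Xist (log2 ratio -0.97), while Sqle (-0.57), Fdps (-0.27) and Ebp (0.50) were within 1.5-fold. The intervals of Fdps, Nsdhl, Dhcr7, Hsd17b7 and Ebp hold 1. Outside the cholesterol genes Acly was lower (46.0 and 73.5 CPM) and Abca1 higher, from 12 and 14 UMIs, and both intervals hold 1. Cluster 2, given below, also held most neuroblast markers but kept no name. Neuroblast-like cells, which are cluster 12, led by Ly6g6e, Sema3a and Sema3c, showed no lower sum. Fdps was higher there, with 240 CPM in KO cells and 151 CPM in control cells (log2 ratio 0.68, 1.11 to 2.28), the 1 of 12 measured genes that was, where 8.94% of 5383 genes were. In neuroblast-like cells with Xist it was within 1.5-fold, at 243 and 171 CPM, and the interval of 0.946 to 2.14 holds 1. Mvd, from 5 and 21 UMIs, and Insig2, from 5 and 25, were lower, where 14.3% were, and their intervals hold 1.

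In oligodendrocyte lineage-like cells, which make myelin and need much sterol for it, the cholesterol sum was 2129 CPM in 32 KO cells and 2681 CPM in 135 control cells (log2 ratio -0.33, 0.709 to 0.888). Fdps (154 and 262 CPM, log2 ratio -0.75), Cyp51 (114 and 188 CPM), Pmvk and Nsdhl were lower by at least 1.5-fold and Lss higher, among 17 measured genes, where 16.7% of 6392 genes were lower and 12.7% higher. Scd2 was higher, with 359 CPM in KO cells and 226 CPM in control cells (log2 ratio 0.68, 1.17 to 2.14), as were Acly and Apoe. Astrocyte markers, summed, stood at 1264 CPM in KO and 534 CPM in control cells of this type and its own markers at 11282 and 6143 CPM, and their part in these differences was not tested. Fads1, a desaturase, had 2 and 34 UMIs, and Fasn, Scap and Stard4 were lower too. The intervals of Pmvk, Lss, Acly, Fasn, Scap and Stard4 hold 1. In this small class Apoe was lower in KO cells inside cluster 27, led by Pdgfra, with 6 UMIs in 5 KO cells and 73 in 39 control cells (log2 ratio -1.17). Among cells with Xist the cholesterol sum was 2106 CPM in KO cells and 2396 CPM in control cells, and the interval, which starts at 0.769, reaches 1.

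Endothelial-like cells had a low level of synthesis genes and the highest level of Stard4. Their cholesterol sum gave a log2 ratio of -0.20 (0.812 to 0.932). Endothelial cells are not among the descendants of radial glia named at the start, so KO here means the library of origin. Whether Kdm6b was deleted in them was not tested. Acat2 was lower, with 47 UMIs in KO cells and 101 in control cells (log2 ratio -0.92, 0.363 to 0.748), as was Fdft1, with 57 and 98 (-0.60), 2 of 17 measured genes, where 6.45% of 11069 genes were lower and 4.52% higher. Fasn, from 16 and 39 UMIs (log2 ratio -1.09), and the regulators Scap (-0.60) and Srebf1 (-0.61) were lower as well. Fdft1 (-0.32) and Srebf1 (-0.47) were within 1.5-fold among cells with Xist, and Acat2, Fasn and Scap were lower. Stard4 stood at 58.7 CPM in KO cells and 62.6 CPM in control cells. Abcg1, the transporter that passes cholesterol to lipoproteins, stood at 68.7 and 47.2 CPM (log2 ratio 0.54, 1.21 to 1.76), within 1.5-fold, and Abca1 at 221 and 203 CPM.

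Granule neuron-like cells had 1292 CPM of cholesterol synthesis transcripts in 32 KO cells and 1732 CPM in 55 control cells (log2 ratio -0.42, 0.652 to 0.852). In their cells with Xist the interval of the ratio, 0.716 to 1.03, holds 1. Neuroblast markers, summed, stood at 6468 CPM in KO and 4216 CPM in control granule neuron-like cells, and their part in the difference was not tested. Cluster 2, which kept no name and whose leading genes include Cpne9, Gal and Prox1, had 683 CPM in 89 KO cells and 753 CPM in 264 control cells, and its interval of 0.786 to 1.04 holds 1. Pyramidal neuron-like cells had 1879 CPM of cholesterol synthesis transcripts in KO cells and 2159 CPM in control cells (log2 ratio -0.20, 0.855 to 0.886). Ependymal-like cells, with 892 and 919 CPM, joined clusters that went opposite ways. Cluster 6, which carries cilia genes, had 804 CPM in KO cells and 737 CPM in control cells (1.01 to 1.18), and cluster 18, led by Pcp4l1, Lmx1a and Wnt8b, had 1283 and 2362 CPM (0.478 to 0.618). In cluster 18, of 72 KO and 26 control cells, 7 of 10 measured genes were lower by at least 1.5-fold, where 14.3% of 5705 genes were lower and 13.7% higher, with Idi1 at 67.4 CPM in KO cells and 220 CPM in control cells and Msmo1 at 126 and 368 CPM. Astrocyte markers, summed, stood at 5980 CPM in KO and 8832 CPM in control cells of cluster 18, and mitochondrial UMIs at 4.51% and 3.58%, and their part in the difference was not tested. Of 28 clusters with at least 10 cells in each library, 25 had a lower sum in the KO library, and the interval lay below 1 in 19 and above 1 in 1.

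Over all cells the fatty acid synthesis sum was 553 CPM in KO cells and 524 CPM in control cells, a log2 ratio of 0.08 (1.03 to 1.08). Scd2 had 267 CPM in KO cells and 223 CPM in control cells (log2 ratio 0.26), and was below 0 in 4 of 17 types or unnamed clusters. Fasn, the synthase, stood at 60.3 and 60.5 CPM, and Acaca, the carboxylase before it, at 34.9 and 35.3 CPM. Acly, Fads1, Fads2 and Elovl6 had log2 ratios of -0.18 to 0.06. Scd1 was the 1 of 8 lower by at least 1.5-fold, from 152 UMIs in KO cells and 294 in control cells (log2 ratio -0.65), but it was highest in astrocyte-like cells, at 67.6 CPM in KO cells and 76.1 CPM in control cells, and with clusters weighted alike in both libraries its log2 ratio was -0.04. By type the sum was higher, with an interval above 1, in radial glia-like, astrocyte-like, ependymal-like and Cajal-Retzius cell-like cells, and lower, with one below 1, in pyramidal neuron-like cells (557 CPM in KO cells and 582 CPM in control cells). The other 13 of 18 intervals hold 1. In pyramidal neuron-like cells, control cells with Y-linked UMIs had 538 CPM and control cells with Xist 586 CPM (ratio interval 0.872 to 0.967). KO cells with Xist, at 557 CPM, lay between them. The pyramidal neuron-like clusters were filled unequally too, cluster 15 with 140 KO and 12 control cells, and their mix was not held equal. In ependymal-like cells the sum was 1059 CPM in KO cells and 837 CPM in control cells (1.18 to 1.35). With clusters weighted alike in both libraries the radial glia-like sum was 817 CPM in KO cells and 786 CPM in control cells. Among cells with Xist the astrocyte-like interval, 0.980 to 1.23, holds 1. Those of radial glia-like, ependymal-like, Cajal-Retzius cell-like and pyramidal neuron-like cells with Xist stayed on the same side of 1. Within the radial glia-like clusters, however, the intervals for cells with Xist hold 1. The sums were 545 CPM in KO and 614 CPM in control cells of cluster 10 (0.711 to 1.11), and 1117 and 937 CPM in cluster 13 (0.990 to 1.45).

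**Figure D5:**
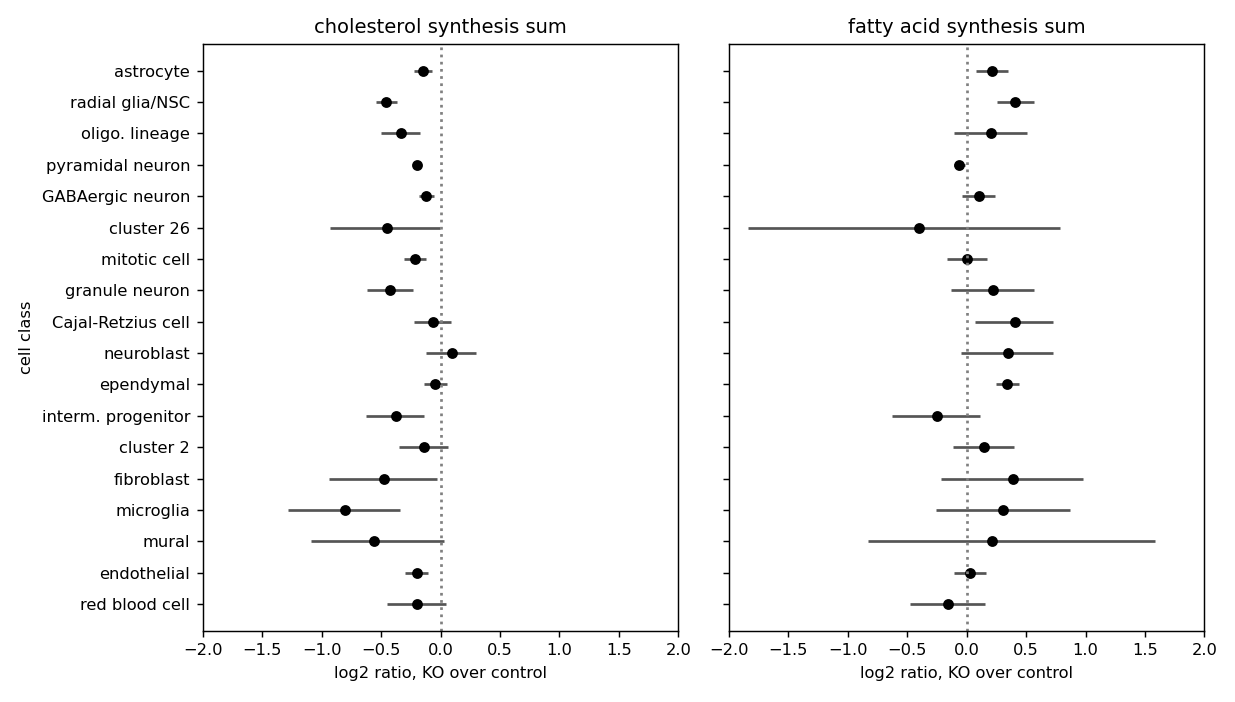
Log2 ratio of the summed CPM, KO over control, for cholesterol synthesis (left) and fatty acid synthesis (right) by cell type or unnamed cluster, with 95% counting intervals. On the left 17 of 18 points lie below 0, and on the right 4 of 18 do.

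The regulators hardly differed in sum. They stood at 203 CPM in KO cells and 212 CPM in control cells, and the interval held 1 in all 18 types or unnamed clusters. Srebf2, at 65.2 and 64.8 CPM over all cells (ratio interval 0.943 to 1.07), had log2 ratios of -0.38 to 0.22 over the 15 types or unnamed clusters where it had at least 20 UMIs. Insig1 had 48.7 CPM in KO cells and 56.9 CPM in control cells (log2 ratio -0.22), Insig2, its relative, a log2 ratio of -0.06, Scap one of 0.09 and Srebf1, the activator of fatty acid genes, one of -0.08. Stard4 stood at 23.4 and 27.6 CPM (-0.23).

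Efflux genes went separate ways over all cells. Apoe was at 969 CPM in KO cells and 1285 CPM in control cells (log2 ratio -0.41), Abca1 at 66.1 and 51.6 CPM (0.36) and Abcg1 at 16.5 and 11.8 CPM (0.49). The libraries hold unlike shares of Apoe-rich cells (76 KO and 261 control cells were astrocyte-like), and with clusters weighted alike in both libraries the log2 ratio of Apoe was -0.13. Among cells with Xist, Abca1 stood at 66.1 CPM in KO cells and 65.7 CPM in control cells, so its all-cell difference was within counting error there. Apoe stood at 921 and 1477 CPM among those cells, lower by at least 1.5-fold (log2 ratio -0.68). Their mix was unequal too, with 57 of 1817 KO cells and 98 of 1295 control cells astrocyte-like. By type, the log2 ratio of Apoe among cells with Xist was -0.23 in astrocyte-like cells and 0.44 in radial glia-like cells. The mix of clusters was not held equal among cells with Xist. In neurons Apoe was low. In pyramidal neuron-like cells it stood at 14.8 and 29.9 CPM (log2 ratio -1.01), and in GABAergic neuron-like cells at 56.0 and 27.6 CPM (1.01), against 16159 and 15331 CPM in astrocyte-like cells. The GABAergic difference was in cluster 11, led by Sst, with 74.2 and 23.4 CPM, and cluster 16, led by Adarb2, had 20.9 and 32.8 CPM. The other efflux genes did not follow Apoe in pyramidal neuron-like cells, where 2 of the 3 had a log2 ratio above 0. Astrocyte markers, summed, stood at 208 and 254 CPM in GABAergic neuron-like cells and at 296 CPM in both libraries in pyramidal neuron-like cells. Haemoglobin transcripts stood at 44.5 and 133 CPM in GABAergic neuron-like cells and at 389 and 301 CPM in pyramidal neuron-like cells. The part of transcripts from outside the cell in the low Apoe levels of neurons was not tested.

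Genes of the same pathways that are not members were read as lists. Uptake and lysosomal genes (10 measured) summed to 978 CPM in KO cells and 923 CPM in control cells, and none of the 10 was past 1.5-fold over all cells, where 5.34% of all genes were lower and 8.25% higher. Lpl, lipoprotein lipase, stood at 392 and 363 CPM, Npc2, a lysosomal sterol carrier, at 217 and 227 CPM, and Lrp8, an apolipoprotein E receptor, at 99.4 and 81.1 CPM. In radial glia-like cells, where 12.7% of all genes were lower and 13.1% higher, 1 of 6 was lower (Vldlr, a lipoprotein receptor, at 17.4 and 47.0 CPM) and 1 higher (Lrp8). Of 15 other fatty acid genes 1 (Thrsp, a regulator of fatty acid synthesis) was lower over all cells and 0 higher, with Tecr, a reductase of chain elongation, at 435 and 485 CPM. In radial glia-like cells 4 of 11 were lower (Thrsp, Acss2, Elovl1 and Elovl5), again against 12.7% of all genes. Thrsp stood at 401 CPM in KO cells and 770 CPM in control cells, and it is among the leading genes of cluster 10, which holds 49 of the KO and 138 of the control cells. Of 17 other sterol genes 1 was lower (Lcat) and 1 higher over all cells: Clu, an apolipoprotein, stood at 190 and 111 CPM, and at 1500 and 675 CPM in radial glia-like cells, where 5 of 9 were higher (Clu, Soat1, Cyp46a1, Abca2 and Stard3) and 2 lower (Lbr and Lcat), against 13.1% and 12.7% of all genes.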

How the data were processed

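Droplet 3′ single-cell libraries (10x Genomics, per the labels' protocols) were analysed from the raw UMI counts that the authors deposited for each gene and barcode. Per the submitters' processing notes, which give no roles, the tools and build were Cell Ranger 3.0.2, Seurat 3 and mm10. A barcode was kept if it held 500 genes or more and 1000 UMIs or more, with mitochondrial UMIs not above 10% (1967 of 2292 in the KO library, 3029 of 3555 in the control library). Scrublet, in scanpy 1.11.5, marked only 0.356% of these in the KO library and 0.132% in the control library and was judged to have failed. Instead the barcodes with the highest doublet scores, 0.8% for every 1000 barcodes in a library, were removed (36 KO and 86 control). Leiden clustering (leidenalg 0.10.2, resolution 1) used 10000 UMIs per cell as the scale, 2000 variable genes, 30 principal components and 15 neighbours. The variable genes excluded the members, the other lipid lists and the sex-linked genes. Names came from 18 marker lists with 3 or more markers found in 10% of a cluster's cells and 1.5-fold above the rest, and names rebuilt in this way may differ from the study's.

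UMIs were summed per library and type, over totals of 25346011 UMIs in KO cells and 31268913 in control cells. Log2 ratios add 0.5 UMI to each sum, ratio intervals are exact conditional binomial and level intervals exact Poisson, at 95%. The ratio script was tested on simulated counts. In each type described in depth, the members named are those past 1.5-fold with at least 20 UMIs over both libraries and otherwise up to 4 per role by UMI sum. Over all cells each member is given. Other lipid genes were named by UMI sum, up to 3 a list. Genes of single clusters, and other lipid genes past 1.5-fold, were named after their values were seen. Members and lists were chosen with earlier results of these data known. Promoters came from the RefSeq table (GRCm38.p6), with windows checked against GENCODE M21 genes. The closing section gives 17 planned and 4 added alternatives.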

Additional observations from a re-analysis of the deposited data

Results flagged for a closer look

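The fatty acid synthesis sum differed in direction between cell types: its log2 ratio, KO over control, was 0.41 in radial glia-like cells and -0.062 in pyramidal neuron-like cells, with intervals on opposite sides of 1. With clusters weighted alike in both libraries the radial glia-like value was 0.056, and within cluster 10 it was -0.18. In pyramidal neuron-like cells, KO cells with Xist had 557 CPM, under control cells with Xist (586 CPM). They were not under control cells with Y-linked UMIs (538 CPM, ratio interval 0.990 to 1.08). The efflux sum did so too, with 1.01 in GABAergic neuron-like cells and -0.75 in pyramidal neuron-like cells. Apoe carried both efflux sums: it was the 1 efflux gene of 3 with at least 20 UMIs in GABAergic neuron-like cells, and in pyramidal neuron-like cells the other 2 had log2 ratios above 0. Neither difference between types was tested, with 1 library per genotype.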

How the results depend on the processing

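No paired analysis was possible because each genotype has 1 library. The log2 ratio of the cholesterol synthesis sum stayed below 0 under every alternative in all cells (-0.39 to -0.17), in radial glia-like cells (-0.88 to -0.34), in intermediate progenitor-like cells (-0.49 to -0.10) and in endothelial-like cells (-0.27 to -0.033). In all cells it was -0.30 with TMM scaling, -0.39 as a mean fraction per cell, -0.17 in Xist-positive cells without Y-linked UMIs, and -0.24 with the mix of clusters held equal, an alternative added after the data were seen. In radial glia-like cells it was -0.60 with no filter on barcodes, -0.61 at resolution 2, -0.36 with 4000 variable genes, -0.88 within cluster 10, -0.34 within cluster 13 and -0.58 with the mix held equal. The number of lower genes there was 8 at resolution 2, 8 within cluster 10 and 1 at 2-fold. The fatty acid sum there was -0.18 within cluster 10, 0.19 within cluster 13 and 0.056 with the mix held equal. In astrocyte-like cells the cholesterol sum was -0.29 with 4000 variable genes and 0.31 within the low-depth cluster 28. In endothelial-like cells it was -0.033 with 4000 variable genes. In intermediate progenitor-like cells it was -0.10 at resolution 0.5, and in neuroblast-like cells it was -0.31 at resolution 0.5 and -0.12 with 4000 variable genes. Of 709 values for 45 single genes and types, 693 kept their direction. Apart from Apoe and Scd2 in all cells and radial glia-like cells, each was chosen for being past 1.5-fold in the same counts. The scaling alternatives moved log2 ratios by at most 0.066, so they could not turn such values and the count is no test of direction. Apoe in radial glia-like cells, within 1.5-fold to begin with, changed direction within cluster 10 (-0.37), within cluster 13 (-0.59) and with the mix held equal (-0.56). Past 1.5-fold and reversed were Apoe in oligodendrocyte lineage-like cells (-1.04 with a stricter filter, -1.17 within cluster 27), Acly (-0.33) and Fasn (0.18) there within cluster 27, and Scd2 there as a mean fraction per cell (-0.042). Also reversed were Fdps (0.35) in intermediate progenitor-like and Insig2 (0.69) in neuroblast-like cells at resolution 0.5, Acly in intermediate progenitor-like cells at resolution 2 (0.074), Insig2 in neuroblast-like cells with 4000 variable genes (0.065), Fads2 (-0.092) and Scd2 (-0.24) within cluster 10, Stard4 (0.011) within cluster 13 and Mvk (0.44) within cluster 28. Apart from the settings that change the cells by their construction, the cause was not tested. Depth limits types under about 50 cells in a library, where single genes rest on few UMIs.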
